A study of Homo sapiens with 6 samples.

Results

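The genes of cholesterol and fatty acid synthesis were followed in MDA-MB-231 cells, a mesenchymal human line derived from breast cancer of the triple-negative type, with a genotype given as WT. The set held 33 genes, chosen by name for their place in the pathway: 5 regulators of the SREBP transcription factors, 7 enzymes from acetyl-CoA to farnesyl diphosphate, 12 enzymes from squalene to cholesterol, 2 sterol transporters and 7 fatty acid enzymes. Each of the 33 matched 1 of the 63241 gene identifiers in the count files, and all 33 were among the 15295 genes that passed the filter on low counts. One group of 3 libraries came from cells given 5 μM NCD (nitidine chloride, a plant alkaloid) for 24 h, and the other group of 3 from cells given 0.1% DMSO, the solvent. RNA-seq at 1 dose, 1 time and in 1 cell line limits what the comparison covers. For NCD replicates 2 and 3 the description carries a different number for the line, while the cell line field says MDA-MB-231. No label says that the libraries came from separate cultures, so p-values measure the spread between these libraries, which may be technical.

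Cells make cholesterol from acetyl-CoA through mevalonate, isoprenoid diphosphates, squalene and lanosterol. When sterols in the endoplasmic reticulum are low, SCAP carries the SREBP precursors to the Golgi, where proteases release the part that enters the nucleus and activates these genes. When sterols are high, INSIG proteins hold SCAP back. SREBP-2, from SREBF2, acts mainly on sterol genes and SREBP-1c, from SREBF1, mainly on fatty acid genes, and INSIG1 is itself a strong SREBP target. The measurements below are of mRNA and do not include sterol levels, SREBP cleavage or protein.

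The DMSO libraries held 18223594 to 19410833 counts in all and the NCD libraries 18232169 to 21629653, and counts of the member genes ran from 146 for TM7SF2 to 22495 for SCD in a single library. Of the markers of the line, VIM was at 2956 to 3156 CPM with DMSO and 2491 to 2749 CPM with NCD. CD44 was lower with NCD, at 966 to 998 CPM with DMSO and 261 to 289 CPM with NCD. AXL went from 845 to 865 CPM to 390 to 409 CPM, and CAV1 from 684 to 748 CPM to 390 to 413 CPM. ESR1, PGR and CDH1 stayed at or below 0.384 CPM, whereas GATA3, listed as a marker to be near 0, was at 5.91 to 7.35 CPM. CPM means counts scaled to library size, with TMM factors applied, fold changes are log2 of NCD over DMSO, and SE is the standard error of a fold change. In bulk RNA, fewer cells of a type and less RNA per cell cannot be told apart.

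The pathway did not move as a block. Within each of its enzyme branches some genes rose with NCD and others fell, mostly by less than 2-fold, and the largest changes were falls of ACACA, ELOVL6 and ELOVL5 and a rise of TM7SF2. At an adjusted p below 0.05 (edgeR's quasi-likelihood test, Benjamini-Hochberg adjustment over all genes tested), 26 of 33 members passed, 10 of them higher and 16 lower. That is 78.8% of the members, beside 69.3% of all genes tested, with 35.3% of all genes higher and 34.1% lower. The median log2 fold change was -0.18 for the members and 0.036 for all genes tested. With the study's fold limit added, an absolute log2 fold change above 1, the members counted as differentially expressed were 4 of 33, or 12.1%, beside 31.0% of all genes. TM7SF2 was the 1 higher gene, against a background of 13.5%, and ACACA, ELOVL6 and ELOVL5 were the 3 lower genes, against 17.5%. All 3 NCD libraries lay above all 3 DMSO libraries for 10 members and below them for 17, beside 37.2% and 35.3% of all genes.

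The split between rises and falls depended on how libraries were scaled. Library totals in place of TMM raised the median of all genes by 0.20, and 15 members were then higher and 8 lower. These are 45.5% and 24.2% of the members, beside 44.6% and 27.3% of all genes under the same scaling. Ribosomal protein genes as the reference gave 7 higher and 8 lower, or 21.2% and 24.2% of the members, beside 27.2% and 28.0% of all genes. With library totals the members' median was 0.015 and that of all genes 0.23, so the members' median lay below that of all genes under both scalings. Across 14 alternative analyses, 15 members kept both their direction and their adjusted p below 0.05. The 7 higher genes among them were SREBF1, IDI1, TM7SF2, EBP, SC5D, FASN and FADS1. The 8 lower genes were SREBF2, INSIG2, ACAT2, FDFT1, LBR, ACACA, ELOVL5 and ELOVL6. Another 11 members passed the test but lost it under at least 1 alternative, 4 of them (HMGCS1, NSDHL, NPC1 and FADS2) under a change of scaling alone. The shares of all genes tested that kept or lost their calls in this way were not counted, so these counts have no background.

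**Figure D1:**
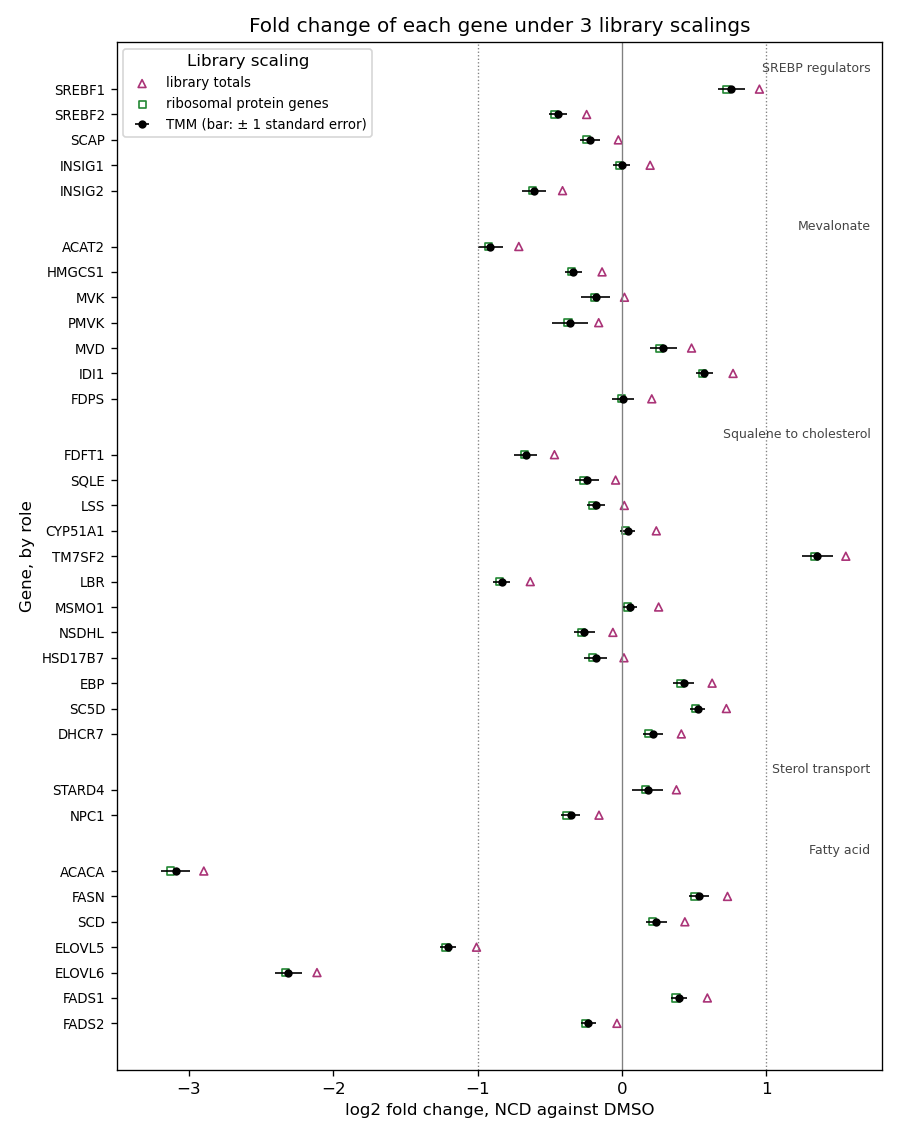
Log2 fold change (NCD over DMSO) of each of the 33 members, grouped by role, under TMM scaling (black points, bars ± 1 SE), library totals (triangles) and ribosomal protein genes as reference (squares); dotted lines mark the fold limit of 1 either way. ACACA at -3.09, ELOVL6 at -2.31, ELOVL5 at -1.21 and TM7SF2 at 1.35 lie outside the range of the other members under all 3 scalings, while members near 0 such as LSS and MVK move across it with library totals.

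Among the regulators, the genes of the SREBP transcription factors moved in opposite directions. SREBF1 (ENSG00000072310; chromosome 17, 17810399 to 17837002, minus strand, GENCODE release 29 on GRCh38) was at 24.2, 27.3 and 24.9 CPM in DMSO replicates 1 to 3 and at 47.2, 42.5 and 39.3 CPM in NCD replicates 1 to 3. Every NCD library lay above every DMSO library. The mean rose from 25.5 ± 1.65 to 43.0 ± 3.99 CPM (SD, n = 3 each), a log2 fold change of 0.76 (SE 0.092, edgeR adjusted p = 7.61e-05). Its exons overlap those of RAI1 on the opposite strand, which averaged 428.9 counts with DMSO and 371 with NCD, and whether counting used strand is not given in the sources used here. SREBF2 (ENSG00000198911; chromosome 22, 41833079 to 41907308, plus strand) was at 120.3, 121.4 and 111.2 CPM with DMSO and at 89.5, 87.6 and 82.6 CPM with NCD, again without overlap. Its log2 fold change was -0.44 (SE 0.063, edgeR adjusted p = 0.00021), and with library totals -0.25 (edgeR adjusted p = 0.0048).

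Of the partners of the SREBP proteins, SCAP and INSIG2 fell and INSIG1 did not pass the test. SCAP, the sterol-sensing escort (ENSG00000114650; chromosome 3, 47413694 to 47477126, minus strand), was at 42.5, 45.4 and 42.1 CPM with DMSO and at 36.2, 38.8 and 36.4 CPM with NCD. It fell by 0.22 on the log2 scale (SE 0.071, edgeR adjusted p = 0.0195), but with library totals the value was -0.026 (adjusted p = 0.761), and the call was also lost without DMSO replicate 2 or NCD replicate 1. With each library left out in turn SCAP ranged from -0.27 to -0.20. INSIG2, an anchor for SCAP whose gene, unlike INSIG1, is not a classical SREBP target (ENSG00000125629; chromosome 2, 118088452 to 118110997, plus strand), was at 38.7, 39.0 and 37.8 CPM with DMSO and at 24.0, 24.0 and 27.7 CPM with NCD. The fall was 1.53-fold, with a log2 fold change of -0.61 (SE 0.082, edgeR adjusted p = 0.000146). INSIG1 (ENSG00000186480; chromosome 7, 155297776 to 155310235, plus strand) was at 173.1, 164.0 and 158.5 CPM with DMSO and at 172.4, 161.7 and 160.2 CPM with NCD, so the groups overlapped. Its log2 fold change was -0.0036 (95% interval -0.14 to 0.13, edgeR adjusted p = 0.96). With library totals INSIG1 was 0.19 higher and past the test (adjusted p = 0.00911), whereas with ribosomal protein genes as reference it was at -0.021.

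To set these genes beside their promoter sequence, RefSeq windows upstream of the gene starts (assembly GRCh38.p14) were matched to 29 of the 33 members, 38 windows in all, and searched over 250 bases on both strands. The sequences shown are of both SREBP genes, which moved apart, of INSIG1, which did not pass the test, and of TM7SF2, the member with the largest rise. Each is printed 5′ to 3′ on the strand of the gene and stops where the annotated gene begins: SREBF1 at chr17:17837003-17837236, minus strand; SREBF2 at chr22:41832855-41833078, plus strand; INSIG1 at chr7:155297628-155297775, plus strand; and TM7SF2 at chr11:65111622-65111844, plus strand. Capitals mark TCACNCCAC, a form of the sterol response element to which SREBPs bind, and CCAAT on either strand (ATTGG on the strand shown), the letters of the NF-Y site.
SREBF1: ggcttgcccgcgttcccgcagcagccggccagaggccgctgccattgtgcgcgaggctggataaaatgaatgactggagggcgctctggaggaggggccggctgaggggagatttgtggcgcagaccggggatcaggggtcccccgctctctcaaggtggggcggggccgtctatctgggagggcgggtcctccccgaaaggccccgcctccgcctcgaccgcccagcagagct
SREBF2: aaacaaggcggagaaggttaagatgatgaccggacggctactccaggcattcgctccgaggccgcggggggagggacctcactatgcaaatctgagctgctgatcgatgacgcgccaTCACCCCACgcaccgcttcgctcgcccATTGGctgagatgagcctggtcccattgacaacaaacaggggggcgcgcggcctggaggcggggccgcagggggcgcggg
INSIG1: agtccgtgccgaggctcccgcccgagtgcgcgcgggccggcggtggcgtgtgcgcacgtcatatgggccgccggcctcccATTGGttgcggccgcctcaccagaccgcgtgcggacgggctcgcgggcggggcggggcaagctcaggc
TM7SF2: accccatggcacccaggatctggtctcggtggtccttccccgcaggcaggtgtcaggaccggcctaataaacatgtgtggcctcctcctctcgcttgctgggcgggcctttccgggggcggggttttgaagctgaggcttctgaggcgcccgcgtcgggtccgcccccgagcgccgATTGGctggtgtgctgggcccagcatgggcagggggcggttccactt

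The SREBF2 window held the only TCACNCCAC match among the members, 133 to 125 bases before the RefSeq start, with an ATTGG 106 to 102 bases before it. INSIG1 held 1 ATTGG and TM7SF2 held 1, and the SREBF1 window held neither form and 3 GC boxes (GGGCGG on either strand). That was the only SREBF1 window, at the upstream end of the gene. Any start further inside the gene, and so any promoter of SREBP-1c there, was not searched. Over the members, TCACNCCAC was found in 1 of 29 genes (3.45%), beside 1.24% of 11059 tested genes with a window and 0.883% of all 35116 windows in the table. CCAAT was found in 19 of 29 members (65.5%), beside 41.3% of tested genes and 32.0% of all windows, and GGGCGG in 26 of 29 (89.7%), beside 73.9% and 42.6%. The E-box CACGTG was in 4 members (SCAP, INSIG1, SC5D and ELOVL5; 13.8%), beside 11.0% and 6.34%. TGATGNAA, a CEBP-ATF element form, was in 0 of 29, beside 2.24% and 3.14%. The shares of members and tested genes are per gene, and those of all windows are per window. Counted per gene over all 27305 genes with a window, the shares were 1.09% for TCACNCCAC, 37.0% for CCAAT and 46.2% for GGGCGG. For CACGTG the share was 7.73% and for TGATGNAA 3.89%. These shares count letters in a window, with no test, and members with more than 1 window had more chances of a match.

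The 7 enzymes up to farnesyl diphosphate divided into 2 that rose, 3 that fell and 2 that did not pass the test, with a median log2 fold change of -0.18. Among all genes tested, 35.3% were higher and 34.1% lower. ACAT2, the cytosolic thiolase that joins acetyl-CoA units (ENSG00000120437; chromosome 6, 159760328 to 159779055, plus strand), had the largest change. It was at 278.3, 228.8 and 251.0 CPM with DMSO and at 137.1, 142.5 and 122.8 CPM with NCD. All NCD values lay well under all DMSO values, a 1.88-fold fall with a log2 fold change of -0.91 (SE 0.086, edgeR adjusted p = 1.46e-05). ACAT2 exons overlap those of TCP1 on the opposite strand, which averaged 5393 counts with DMSO and 7103 with NCD. HMGCS1, the synthase of HMG-CoA, fell by 0.34 on the log2 scale (edgeR adjusted p = 0.000688), but with library totals the value was -0.14 and no longer past the test.

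Further along, mevalonate kinase MVK was at -0.18 (95% interval -0.41 to 0.048, edgeR adjusted p = 0.137) and phosphomevalonate kinase PMVK fell by 0.36 (edgeR adjusted p = 0.027). MVD, the decarboxylase that makes isopentenyl diphosphate, rose by 0.28 (edgeR adjusted p = 0.0234), although its groups overlapped, at 46.2 to 53.0 CPM with DMSO and 52.6 to 64.4 CPM with NCD. The PMVK call was lost without DMSO replicate 1 or NCD replicate 2 (range without 1 library -0.48 to -0.26), and with library totals, where PMVK was at -0.16 (edgeR adjusted p = 0.233). The MVD call was lost without DMSO replicate 2 or 3 or NCD replicate 1 or 2 (range 0.20 to 0.35), and with library totals MVD was at 0.48. IDI1, the isomerase that follows, was named after its values were seen. It was at 264.6, 234.4 and 251.2 CPM with DMSO and at 372.1, 376.0 and 365.6 CPM with NCD. That rise of 0.57 (SE 0.061, edgeR adjusted p = 3.35e-05) was the largest of the branch. FDPS, farnesyl diphosphate synthase (ENSG00000160752; chromosome 1, 155308748 to 155320666, plus strand), changed least. Its values were 326.0, 279.1 and 299.6 CPM with DMSO and 309.9, 319.1 and 280.4 CPM with NCD, within the same range, and the log2 fold change was 0.0076 (95% interval -0.17 to 0.18, edgeR adjusted p = 0.935).

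**Figure D2:**
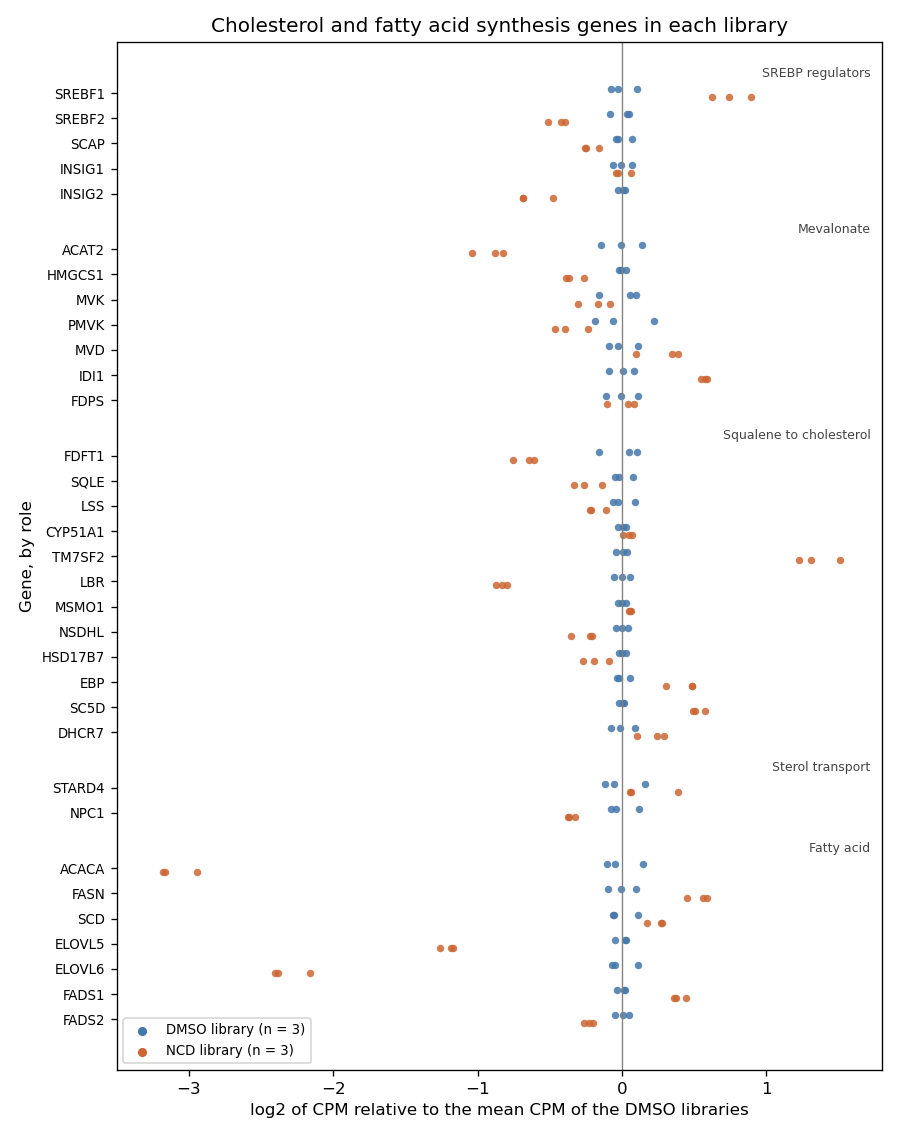
Expression of the 33 members in each of the 6 libraries, grouped by role, as log2 of CPM relative to the mean CPM of the DMSO libraries; each point is 1 library (n = 3 per group, in separate colours). The NCD points of ACACA (11.2 to 13.2 CPM against 94.2 to 112.2 CPM) and ELOVL6 (16.5 to 19.5 CPM against 83.0 to 94.2 CPM) lie far to the left of the DMSO points, and those of INSIG1 and FDPS overlap them.

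From squalene to cholesterol, 4 of 12 enzymes rose, 5 fell and 3 did not pass the test, with a median log2 fold change of -0.071. The shares of all genes tested were 35.3% higher and 34.1% lower. FDFT1, squalene synthase and the first step that commits farnesyl diphosphate to sterols, fell: it was at 335.5, 279.8 and 323.7 CPM with DMSO and at 205.5, 200.5 and 185.5 CPM with NCD (log2 fold change -0.67, SE 0.079, edgeR adjusted p = 6.65e-05). It was named after its values were seen. SQLE, the epoxidase of squalene, fell by 0.24 (edgeR adjusted p = 0.0268) and LSS, which closes the rings to lanosterol, by 0.18 (edgeR adjusted p = 0.0302). Both calls were lost without DMSO replicate 2 or NCD replicate 2. The range without 1 library was -0.32 to -0.21 for SQLE and -0.24 to -0.15 for LSS, and with library totals SQLE was at -0.045 (edgeR adjusted p = 0.637) and LSS at 0.015. CYP51A1, the lanosterol demethylase (ENSG00000001630; chromosome 7, 92112151 to 92134803, minus strand), changed least in the branch. It was at 207.4, 199.6 and 205.0 CPM with DMSO and at 213.6, 204.8 and 210.4 CPM with NCD, with overlapping groups and a log2 fold change of 0.039 (95% interval -0.079 to 0.16, edgeR adjusted p = 0.521).

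TM7SF2 and LBR carry the same step, the reduction of the sterol C14 double bond, and moved in opposite directions. TM7SF2 (ENSG00000149809; chromosome 11, 65111845 to 65116384, plus strand) was at 8.80, 8.37 and 8.66 CPM with DMSO and at 24.5, 21.4 and 20.1 CPM with NCD. It rose 2.55-fold, with no overlap and a log2 fold change of 1.35 (SE 0.11, edgeR adjusted p = 4.06e-06), between 1.25 and 1.40 with each library left out in turn. TM7SF2 shares exon sequence on the same strand with VPS51, which averaged 848.7 counts with DMSO and 1122 with NCD, so the division of reads between them is uncertain. LBR, which is also an inner nuclear membrane protein that binds lamin B (ENSG00000143815; chromosome 1, 225401502 to 225428925, minus strand), was at 371.0, 357.2 and 342.7 CPM with DMSO and at 200.9, 194.4 and 205.2 CPM with NCD. It fell 1.78-fold (log2 fold change -0.83, SE 0.057, edgeR adjusted p = 1.84e-06). LBR was picked after its values were seen.

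Of the later demethylation and isomerisation enzymes, MSMO1 (0.055, 95% interval -0.059 to 0.17) and HSD17B7 (-0.18, 95% interval -0.37 to 0.0011) did not pass the test. NSDHL fell by 0.26 (edgeR adjusted p = 0.0109), though with library totals it was at -0.064 and not past the test. EBP, which moves the ring double bond, rose by 0.43 (edgeR adjusted p = 0.000589) and SC5D, the lathosterol desaturase, by 0.52 (edgeR adjusted p = 2.23e-05). DHCR7, the final reductase, rose by 0.21 (edgeR adjusted p = 0.0228), a call lost without DMSO replicate 1 or 3 or NCD replicate 1 or 2 (range without 1 library 0.15 to 0.25), and with library totals it was at 0.41.

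The 2 transporters, NPC1 and STARD4, differed in their values. NPC1, which exports cholesterol from lysosomes (ENSG00000141458; chromosome 18, 23506184 to 23586898, minus strand), was at 125.9, 144.2 and 129.0 CPM with DMSO and at 102.8, 102.9 and 106.0 CPM with NCD. It fell by 0.36 on the log2 scale (SE 0.066, edgeR adjusted p = 0.00112). With library totals it was at -0.16 and not past the test (adjusted p = 0.0806). Its exons overlap RMC1 on the opposite strand, which averaged 470.9 counts with DMSO and 864 with NCD. STARD4, a cytosolic sterol carrier (ENSG00000164211; chromosome 5, 111496033 to 111512590, minus strand), was at 95.9, 116.2 and 100.1 CPM with DMSO and at 108.1, 108.7 and 136.4 CPM with NCD. The groups overlapped, with a log2 fold change of 0.18 (95% interval -0.067 to 0.42, edgeR adjusted p = 0.169), and NCD replicate 3 was the highest of the 6 libraries. Without NCD replicate 3 the value was 0.043, and the range without 1 library was 0.043 to 0.26. With library totals STARD4 was at 0.38 and past the test (edgeR adjusted p = 0.0219).

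All 7 fatty acid enzymes passed the test, 3 higher and 4 lower, where 69.3% of all genes tested passed (35.3% higher, 34.1% lower). Acetyl-CoA carboxylase 1 and fatty acid synthase, the consecutive enzymes that make malonyl-CoA and palmitate, moved apart. ACACA (ENSG00000278540; chromosome 17, 37084988 to 37406818, minus strand) was at 97.9, 112.2 and 94.2 CPM with DMSO and at 13.2, 11.2 and 11.3 CPM with NCD. It fell 8.53-fold (log2 fold change -3.09, SE 0.10, edgeR adjusted p = 3.14e-08), between -3.20 and -3.02 with each library left out in turn. Per kilobase of exon its level went from 7.80 to 0.913 CPM, the lowest of the members with NCD. FASN, picked after its values were seen, was at 141.9, 152.4 and 133.1 CPM with DMSO and at 213.7, 210.2 and 194.7 CPM with NCD. It rose 1.45-fold (log2 fold change 0.53, SE 0.069, edgeR adjusted p = 0.000109).

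The elongases ELOVL6 and ELOVL5, which lengthen saturated and polyunsaturated chains, both fell. ELOVL6 (ENSG00000170522; chromosome 4, 110045846 to 110199199, minus strand) was at 84.4, 94.2 and 83.0 CPM with DMSO and at 16.7, 16.5 and 19.5 CPM with NCD, a 4.96-fold fall (log2 fold change -2.31, SE 0.093, edgeR adjusted p = 8.04e-08). ELOVL5 (ENSG00000012660; chromosome 6, 53267398 to 53349179, minus strand) was at 271.7, 258.1 and 269.7 CPM with DMSO and at 118.2, 111.1 and 117.1 CPM with NCD, a 2.31-fold fall (log2 fold change -1.21, SE 0.056, edgeR adjusted p = 1.75e-07). With library totals ELOVL5 was at -1.01 and stayed past the fold limit. Genes that overlap ACACA, ELOVL6 or ELOVL5 had at most 4 counts in any library.

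The desaturases moved in both directions. SCD, the stearoyl-CoA desaturase and per kilobase of exon the most abundant member (151.6 CPM with DMSO, 178.8 CPM with NCD), rose by 0.24 (SE 0.070, edgeR adjusted p = 0.014). The call was lost without DMSO replicate 1 or 3 or NCD replicate 1 (range 0.18 to 0.29), and with ribosomal protein genes as reference. With library totals SCD was at 0.43. FADS1, the delta-5 desaturase, which was picked after its values were seen, was at 252.2, 253.2 and 244.5 CPM with DMSO and at 340.1, 321.0 and 323.6 CPM with NCD. It rose by 0.39 (SE 0.054, edgeR adjusted p = 0.000169). FADS2, the delta-6 desaturase beside it (ENSG00000134824; chromosome 11, 61792980 to 61867354, plus strand), was at 265.5, 273.2 and 255.2 CPM with DMSO and at 229.8, 225.7 and 220.1 CPM with NCD. It fell by 0.23 (SE 0.055, edgeR adjusted p = 0.00427), and with library totals it was at -0.036 and not past the test. FADS2 overlaps exons of FADS1 on the opposite strand and of FEN1 on the same strand, and FEN1 averaged 3619 counts with DMSO and 5271 with NCD.

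Because the direction of small changes depended on scaling, ratios between functionally paired members were computed within each library, where scaling cancels. The 6 pairs were chosen after the values had been seen, so the ratios are descriptions, and a two-sided exact permutation test of 3 against 3 gave p = 0.1 for each, the smallest it allows. In CPM per kilobase of exon, SREBF1 over SREBF2 was 0.189, 0.212 and 0.211 with DMSO and 0.497, 0.457 and 0.448 with NCD, a mean 2.29 times as high. For INSIG1 over INSIG2 the values were 4.84, 4.55 and 4.54 with DMSO and 7.78, 7.31 and 6.26 with NCD. TM7SF2 over LBR went from 0.0366, 0.0362 and 0.0390 to 0.188, 0.170 and 0.151, a mean 4.55 times as high, with LBR still the more abundant. FASN over ACACA showed the widest gap, at 2.01, 1.89 and 1.96 with DMSO and 22.6, 26.1 and 24.0 with NCD. IDI1 over FDFT1 was near 1 with DMSO (0.944, 1.00 and 0.929) and at 2.17, 2.25 and 2.36 with NCD, and FADS1 over FADS2 was at 1.02, 0.999 and 1.03 with DMSO and 1.60, 1.53 and 1.58 with NCD. In all 6 pairs every NCD library lay above every DMSO library. Each ratio was set with the gene of the higher fold change on top, after the values were seen. This separation, and the permutation p with it, therefore follows from the choice of pairs and is not evidence of its own.

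**Figure D3:**
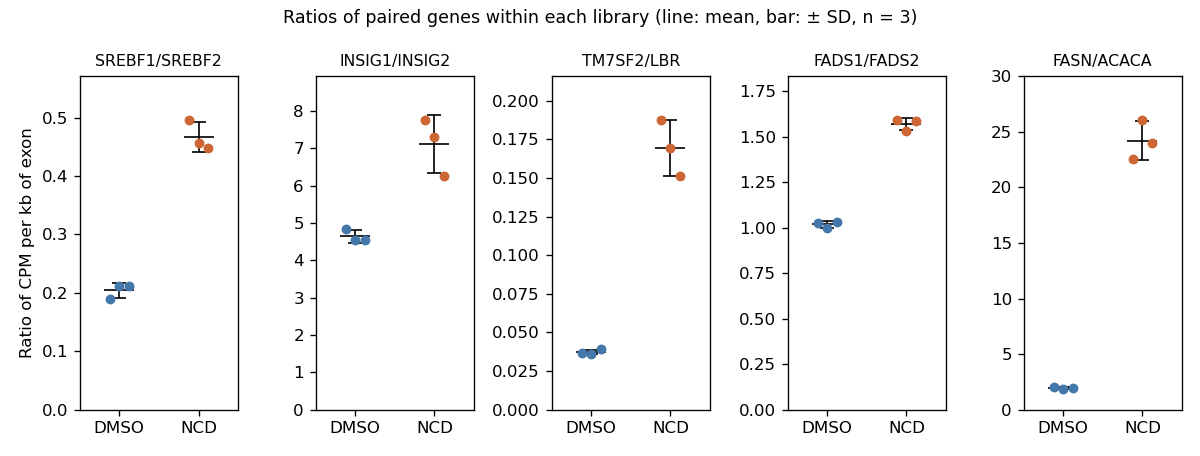
Ratio of CPM per kilobase of exon within each library for 5 of the 6 pairs, on linear axes that start at 0; points are libraries, lines are means and bars ± SD (n = 3). The mean FASN to ACACA ratio is 12.4 times as high with NCD and the TM7SF2 to LBR ratio 4.55 times. No pair shown has overlapping groups, but the pairs were chosen after the values were seen.

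Summed over the 19 enzymes from ACAT2 to DHCR7, the sterol branch came to 2809.8, 2603.1 and 2665.9 CPM with DMSO and 2547.0, 2517.8 and 2426.2 CPM with NCD, a ratio of 0.927. On raw library totals without TMM, the ratio of the same sum was 1.06, so its direction is set by the scaling. For the 7 fatty acid enzymes the sum had a ratio of 0.968 with TMM and 1.11 without it.

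Gene span, the distance from the first to the last annotated base, moved with the fold changes of the members. Of 13 members with a span up to 20 kb, 7 rose and 2 fell, with a median log2 fold change of 0.24. Of 13 between 20 and 50 kb, 3 rose and 7 fell, with a median of -0.18. All 7 members over 50 kb fell (SREBF2, SCAP, NPC1, FADS2, ELOVL5, ELOVL6 and ACACA), with a median of -0.44. Long genes were lower among all genes tested as well. The median of all genes was 0.43 at 13.2 to 20.1 kb and -0.35 at 58.9 to 89.7 kb. It was -0.93 at 89.7 to 153.1 kb and -2.09 for longer spans. The shares of all genes that rose or fell within the span ranges used for the members were not counted. Spearman's rho between span and log2 fold change was -0.63 over the 33 members, -0.46 over the 29 left without ACACA, ELOVL6, ELOVL5 and TM7SF2, and -0.50 over 14692 tested genes with a span. These are descriptions across genes, which share their libraries and are not independent replicates.

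The members were then set beside tested genes of like span, in 10 span classes of equal size. ACACA, with a span of 321.8 kb, and ELOVL6, with 153.4 kb, were in the longest class (153.1 to 2172.9 kb), whose median log2 fold change was -2.09 and of which 79.2% were differentially expressed and lower. ELOVL6 lay 0.22 below that median and ACACA 1.00 below it. The quartiles of this class were -3.05 and -1.24, so ELOVL6 (-2.31) lay between them and ACACA (-3.09) only just under the lower one. ELOVL5, with 81.8 kb, lay 0.85 below the median of its class (-0.35). LBR lay 1.16 below and ACAT2 1.34 below the medians of their classes, which were 0.32 and 0.43. ELOVL5, LBR and ACAT2 were also under the lower quartiles of their classes (-0.78, -0.10 and -0.026). They were not alone in this. INSIG2 (-0.61, which lay 0.93 below its class median), FDFT1, HMGCS1, PMVK, SQLE, MVK, HSD17B7, INSIG1 and FDPS were under theirs too. On the other side, TM7SF2 lay 0.97 above a median of 0.39 and SREBF1 0.43 above a median of 0.32, whereas SREBF2 (-0.090) and NPC1 (-0.0040) were close to theirs. TM7SF2 (1.35) was above the upper quartile of its class (0.90), but SREBF1 (0.76) was within the quartiles of its own (upper quartile 0.78). Of the 33 members, 24 were below the median of their class and 9 above it. By definition a class median splits all tested genes of the class evenly. The part of gene span in these results was not tested.

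**Figure D4:**
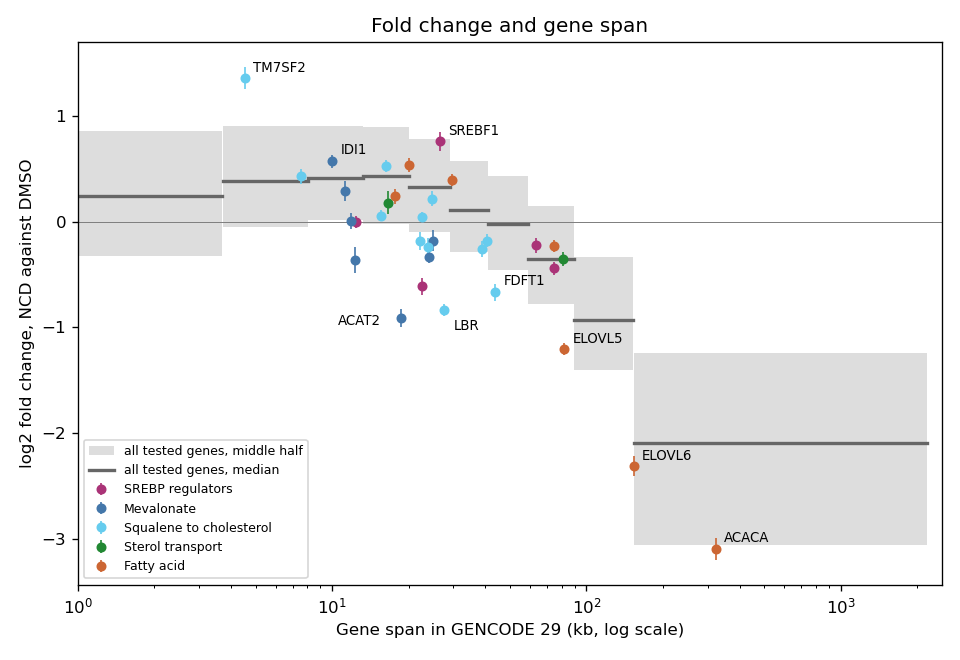
Log2 fold change of the members against gene span in kb (log axis), points with bars of ± 1 SE coloured by role, over the median (grey lines) and the range between quartiles (grey boxes) of all tested genes in 10 span classes. The medians of all genes run from 0.43 at 13.2 to 20.1 kb to -2.09 in the longest class. ACACA, ELOVL5, LBR and ACAT2 are among the members under the medians for their span, and TM7SF2 is among those above.

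Around the members, 52 further genes of sterol and lipid metabolism were listed by function, and 50 of them were tested: 20 rose, 23 fell and 7 did not pass the test. Over all genes tested, 35.3% were higher and 34.1% lower, the shares to set beside this count and that of each list. Of 7 genes for SREBP processing and sterol sensing, 2 rose, 3 fell and 2 did not pass, with none past the fold limit. SPRING1, which supports the SREBP-cleaving protease, rose by 0.72 (edgeR adjusted p = 7.35e-06), while the proteases MBTPS1 (-0.35) and MBTPS2 (-0.43) fell. These 3 were named after their values were seen, and with ribosomal protein genes as reference the calls on both proteases were lost. The LXR and sterol efflux list had 4 of 7 tested genes higher and 2 lower, with a median of 0.59. SMPDL3A, a phosphodiesterase induced by LXR, rose from 5.23 ± 0.214 to 25.7 ± 0.649 CPM (SD, n = 3 each; log2 fold change 2.30, SE 0.093, edgeR adjusted p = 8.14e-08). MYLIP, the ubiquitin ligase that lowers lipoprotein receptors, rose from 8.68 ± 0.629 to 20.4 ± 0.964 CPM (log2 fold change 1.23, SE 0.098, edgeR adjusted p = 4.74e-06). ABCA1, the efflux pump that LXR also induces, fell by 2.10 (edgeR adjusted p = 1.69e-05), with a mean of 2.92 CPM and a span of 147.2 kb; it was named after its value was seen.

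In the isoprenoid branch, which draws on farnesyl diphosphate, 2 of 10 genes rose and 6 fell, beside 35.3% and 34.1% of all genes tested. PDSS2, a subunit of the enzyme that makes the ubiquinone side chain, fell most, from 18.1 ± 0.637 to 1.30 ± 0.417 CPM (log2 fold change -3.81, SE 0.19, edgeR adjusted p = 2.50e-07), and its span is 307.0 kb. Its partner subunit PDSS1 (-1.18) and the farnesyltransferase subunit FNTB (-1.02) were also past the fold limit, but with library totals they were at -0.99 and -0.83. Of 17 genes for acetyl-CoA supply and acyl-CoA handling, 4 rose and 11 fell, beside the same shares of all genes. The largest falls were of ME1, an NADPH source (-2.74; span 220.7 kb), HSD17B12, the ketoreductase of chain elongation (-2.24; 176.1 kb), and ACSL4, an acyl-CoA synthetase for polyunsaturated chains (-1.60; 109.2 kb). ELOVL7, an elongase named after its value was seen, rose by 1.10 (SE 0.096, edgeR adjusted p = 8.53e-06; 92.6 kb). With library totals 5 genes of this list were higher and 8 lower, the calls on ACLY, ELOVL1 and HACD3 being lost. Under that scaling 44.6% of all genes were higher and 27.3% lower.

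The list for lipid storage and lysosomal sterol handling had 8 of 9 tested genes higher and 1 lower, with a median of 0.69. Of all genes tested, 35.3% were higher and 34.1% lower. With ribosomal protein genes as reference 7 of the list were higher and 1 lower, the call on LIPA being lost. That reference gave 27.2% of all genes higher and 28.0% lower. NPC2, the soluble lysosomal partner of NPC1, rose by 0.97 (SE 0.089, edgeR adjusted p = 1.23e-05) and PLIN2, a lipid droplet coat protein, by 0.94 (SE 0.058, edgeR adjusted p = 9.57e-07). SOAT1, which esterifies cholesterol, fell by 0.79 (SE 0.060, edgeR adjusted p = 3.64e-06). NPC2, PLIN2 and SOAT1 were named after their values were seen. LIPA, in the same list, overlaps exons of IFIT2 on the opposite strand, which averaged 361.6 counts with DMSO and 7402 with NCD, so its value of 0.26 is uncertain. NPC2 exons likewise overlap those of ISCA2 on the opposite strand, which averaged 1008.7 counts with DMSO and 1364 with NCD.

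**Figure D5:**
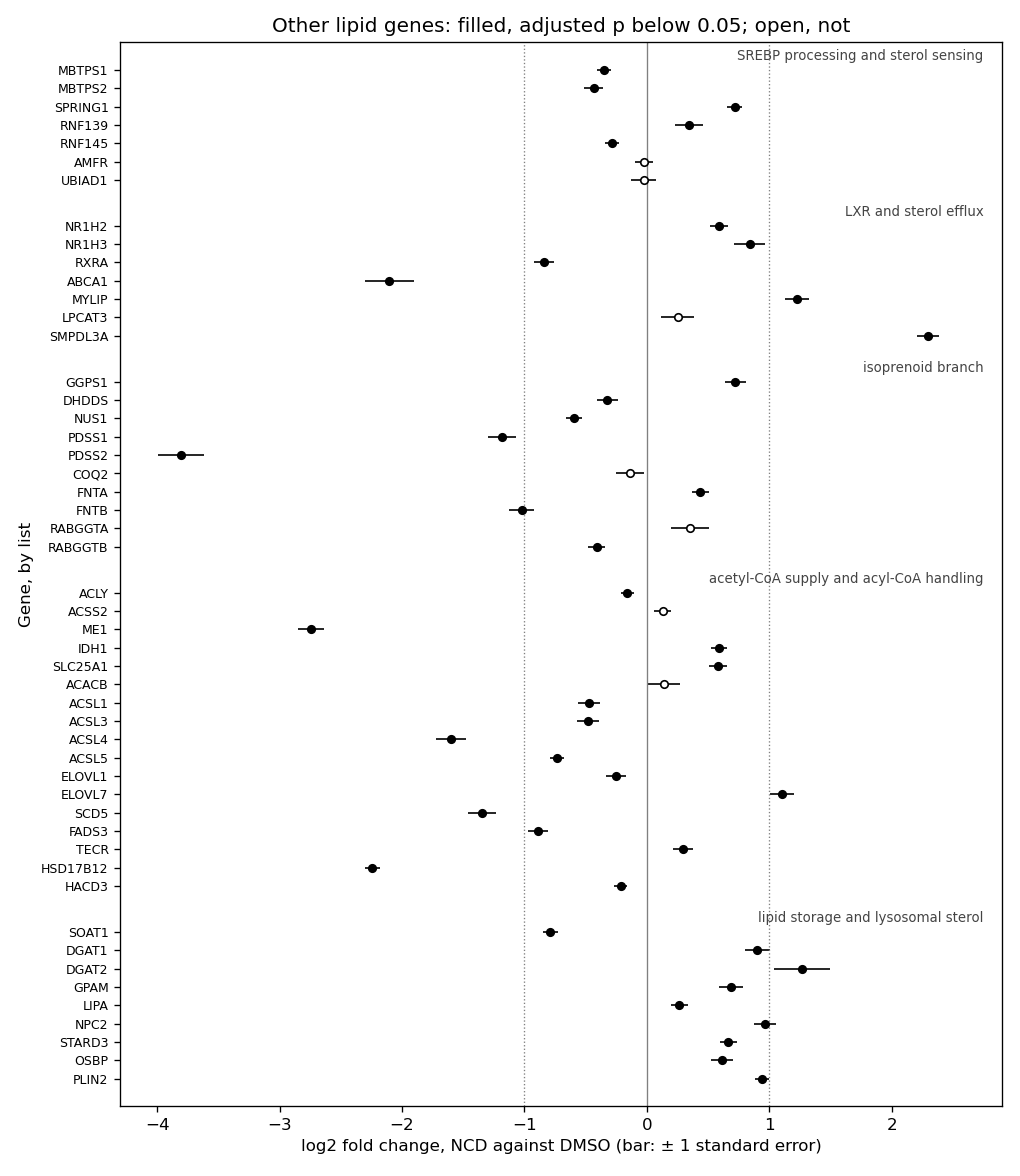
Log2 fold change (NCD over DMSO) of the 50 tested genes around the members, in 5 lists by function. Points are genes with bars of ± 1 SE, filled where the adjusted p is below 0.05; the storage and lysosomal list lies mostly above 0 (median 0.69), and the list of acetyl-CoA supply and acyl-CoA handling mostly below it (median -0.25).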

How the data were processed

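RNA of NCD-treated and DMSO-treated MDA-MB-231 cultures was sequenced in 3 libraries per group. The authors aligned reads with HISAT2 and deposited RSEM expected counts per Ensembl gene, each library on its own and not normalized. GRCh38 is named in the submitters' processing notes, while tool versions, annotation release and strandedness are not given in the sources used here. Each file had 25 lines without a gene or count, which were skipped. The authors' own test was DESeq2 with limits of 1 on the absolute log2 fold change and 0.05 on p.

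These values, rounded to whole numbers, were tested in R 4.3.3 with edgeR 4.0.16 (filterByExpr, TMM, glmQLFit, glmQLFTest), with Benjamini-Hochberg adjustment over 15295 genes. TMM factors were 0.911 to 0.949 with DMSO and 1.059 to 1.092 with NCD. SE is the absolute log2 fold change over the square root of F. Intervals are 95% from the fit. Spans, exon lengths and coordinates came from GENCODE release 29, which holds 58228 of the 63241 identifiers. Counts were also simulated from the DMSO means, with a single dispersion and 200 genes changed in either direction (14784 genes tested). There, 85 of 88 genes changed 2-fold and 112 of 112 changed 4-fold were recovered, with 16 false calls. In the data 69.3% of genes passed, so the simulation cannot show how the test or TMM behaves under so wide a change. Within groups the chi-square per degree of freedom was at least 2.07 for every pair of libraries, so none was counted as a duplicate.

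The members, the lists of related genes and the tests were chosen with earlier results of these data known. Full values were given for the regulators, for members past both limits, and for the members of each other role with the largest and the smallest change. Of each related list, up to 3 genes past both limits with a mean of at least 5 CPM were named. Alternatives were limma-voom (limma 3.58.1), DESeq2 1.42.0 (by adjusted or by unadjusted p), library totals, ribosomal protein genes as reference, no filter, a minimum of 10 counts per library, a replicate block and each library left out. Python 3.11.15, pandas 2.3.3, numpy 2.4.6, scipy 1.17.1 and matplotlib 3.10.9 were used.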

Additional observations from a re-analysis of the deposited data

How the results depend on the processing

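The 4 differentially expressed members, 1 higher and 3 lower, numbered the same under all 14 alternatives. Of the calls at any fold, 26 in the analysis as reported, 15 were left with ribosomal protein genes as reference, with the lower ones down from 16 to 8, and library totals also left 8 lower. Leaving out each library in turn gave 21 to 26 calls, the fewest without NCD replicate 2. Over all genes 31.4% were higher and 31.1% lower without that library, beside 35.3% and 34.1% as reported. Library totals turned the signs of INSIG1 (0.19), MVK (0.016), LSS (0.015) and HSD17B7 (0.013) and of the members' median (0.015, beside 0.23 for all genes, which this scaling shifts by 0.20). FDPS, near 0, changed sign under DESeq2 (-0.013 with adjusted and with unadjusted p), with a minimum of 10 counts per library (-0.010) and with ribosomal protein genes (-0.0072). Without 1 library FDPS ranged from -0.054 to 0.044 and INSIG1 from -0.063 to 0.011. The cause was not tested. MVK passed the test only without DMSO replicate 2.

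Same-numbered replicates deviated together with correlations of 0.216, -0.185 and 0.023, so the numbers were not taken to pair the libraries. With the replicate block 25 members passed, 10 higher and 15 lower, LSS being lost, and the 4 differentially expressed members stayed at 4. The block gave 33.9% of all genes higher and 33.4% lower. Of the member results under an alternative, 401 kept direction and call, 42 lost the call, 6 gained it and 15 changed sign, 2 of the 15 also losing or gaining the call. The same was not counted over all genes. Over all genes, 3683 were differentially expressed with a minimum of 10 counts per library and 5545 with no filter, beside 4736 as reported.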
